A study of Mus musculus with 15 samples.

Results

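The genes described here are 3 hormone receptors (Esr1, Pgr and Prlr) and 4 regulators of luminal mammary cells (Foxa1, Gata3, Tbx3 and Cited1), taken by name from a fixed list of 7. Of these 7, 6 had an array probe set (a transcript cluster) assigned to that gene alone, among 22180 genes with such a cluster. Where a gene had several, the brightest was used. No cluster was named for Prlr, and its level was not analysed here. RNA came from mammary tumors that arose in ErbB2KI mice, in which Erbb2 is the driver oncogene. They were taken at end burden and flash frozen, and each was run on 1 array. The mice carried Ctnnb1 wt/wt (WT), fl/wt (HET) or fl/fl (HOM), with 5 tumors per genotype. Floxed Ctnnb1, the gene of beta-catenin, was meant to be deleted in mammary epithelium, and all 3 groups share the ErbB2KI background. The labels used here name no Cre driver, age or strain. They also leave unsaid whether each tumor is from its own mouse, and the p-values measure only the spread between these tumors.

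The mammary gland responds to ovarian and pituitary hormones through a minority of luminal cells, the hormone-sensing cells, which carry the estrogen receptor (Esr1), the progesterone receptor (Pgr) and the prolactin receptor (Prlr). Estrogen and progesterone receptors are transcription factors switched on by their steroid. Hormone-sensing cells then pass the signal to neighbours through secreted factors such as Wnt4 and RANKL, the product of Tnfsf11. Prolactin acts through Jak2 and Stat5 and drives alveolar and milk protein genes. Foxa1 opens chromatin for the estrogen receptor, Gata3 maintains luminal identity, Tbx3 is a repressor needed for mammary gland formation, and Cited1 is a coactivator of the estrogen receptor.

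All values are the deposited log2 array values. Array medians lay between 5.54 and 5.73. The median serves here as a reference for a dim signal, since no detection call was available. Ctnnb1 itself had 79.1% of its WT level in HET and 78.0% in HOM, and neither difference passed the test (limma, adjusted p = 0.448 and an adjusted p that rounded to 1). The tumor labelled WT 5 had a Ctnnb1 value of 11.22, against 11.71 to 12.10 in the other WT tumors, and the tumor labelled HOM 5 had 12.01, against 11.15 to 11.58 in the other HOM tumors. Without these 2 tumors HOM against WT was -0.65 for Ctnnb1 instead of -0.36 on the log2 scale (limma adjusted p = 0.433). These values go against the labels, so every direction below that involves WT or HOM is between the tumors so labelled. Erbb2, the driver, averaged 11.11 ± 0.88 (WT), 12.70 ± 0.235 (HET) and 11.53 ± 1.04 (HOM). HET was 1.59 above WT on the log2 scale (limma unadjusted p = 0.0044), which did not pass (limma adjusted p = 0.224). Every HET tumor (12.39 to 12.92) lay above every WT tumor (9.63 to 11.85). With single tumors left out, this Erbb2 difference ran from 1.22 to 1.77. HOM tumors ranged from 10.52 to 12.83, and 4 of them lay below all HET tumors. The part of the Erbb2 level in the HET comparisons below was not tested. The tumor labelled HET 1 had a low mean of luminal epithelial markers (7.95, against 9.68 to 11.06 in the other HET tumors) and a high mean of B and plasma cell markers (9.74). HET 3 had a high mean of skeletal muscle markers (11.28). In whole tumors, fewer cells of a type and less RNA per cell cannot be told apart.

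None of the measured members separated the genotypes. Of the 6, 5 (all but Pgr) were bright enough to be tested, meaning above the array median on at least 5 arrays. In HET against WT 0 of these 5 passed an adjusted p of 0.05 (limma), and 0 had an unadjusted p under 0.05. Among all 14243 genes tested in that comparison, 0.014% passed and 13.4% had an unadjusted p under 0.05. In HOM against WT 0 of 5 passed and 0 had an unadjusted p under 0.05, beside 0% and 1.7% of all genes. In HOM against HET 0 of 5 passed, beside 0% of all genes. Gata3 alone had an unadjusted p under 0.05 there, beside 7.93% of all genes. What the members showed was variation from tumor to tumor. It was widest for Foxa1, whose values spanned 4.10 log2 units over the 15 tumors, and for Gata3, which spanned 2.81.

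**Figure D1:**
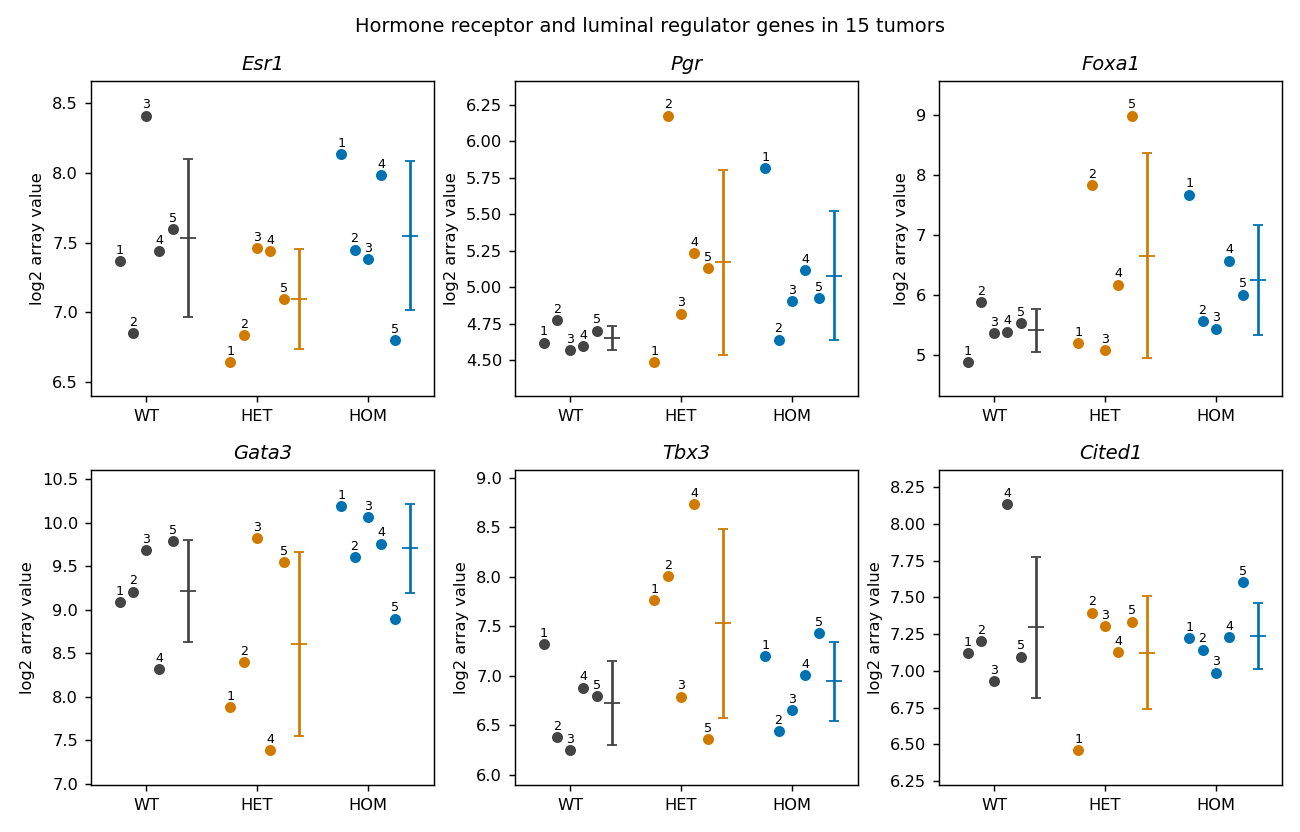
Log2 array value of each measured gene (vertical axes, 1 panel per gene, each with its own scale) in the 5 WT, 5 HET and 5 HOM tumors. Points are tumors, numbered as in the text, and bars give the mean ± SD (n = 5). In every panel the 3 genotypes overlap. Foxa1 stands out in HET 2, HET 5 and HOM 1, and Pgr in HET 2 and HOM 1.

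Esr1 encodes estrogen receptor alpha (transcript cluster 17231461). In the WT tumors 1 to 5 it was 7.37, 6.85, 8.41, 7.44 and 7.59. In the HET tumors 1 to 5 it was 6.65, 6.84, 7.46, 7.44 and 7.10, and in the HOM tumors 1 to 5 it was 8.13, 7.45, 7.38, 7.98 and 6.80. WT 3 was the highest and HET 1 the lowest, and the genotypes overlapped. All 15 values lay above the median of their array. Mean Esr1 was 7.53 ± 0.56 for WT, 7.10 ± 0.36 for HET and 7.55 ± 0.53 for HOM (SD, n = 5 each). HET was 1.35-fold below WT (log2 difference -0.44, 95% interval -1.07 to 0.20, limma adjusted p = 0.521). That difference was -0.22 without WT 3. HOM and WT differed by 0.017 (95% interval -0.61 to 0.65, limma adjusted p rounding to 1), a direction that turned when some single tumors were left out or the arrays were centred on their medians. HOM was 0.45 above HET (95% interval -0.18 to 1.08, limma adjusted p = 0.697).

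Pgr encodes the progesterone receptor, itself a classical estrogen receptor target (transcript cluster 17514637). Its WT values were 4.62, 4.77, 4.57, 4.59 and 4.70 in tumors 1 to 5, all below the array medians. In HET it was 4.49, 6.18, 4.82, 5.23 and 5.13, and in HOM 5.82, 4.64, 4.90, 5.12 and 4.92. Only HET 2 and HOM 1 exceeded the median of their array, so Pgr was near the dim end in 13 of 15 tumors and its differences there are uncertain. Means were 4.65 ± 0.085 (WT), 5.17 ± 0.63 (HET) and 5.08 ± 0.45 (HOM). Pgr missed the brightness filter and was left out of the fit above. A fit without the filter gave log2 differences of 0.52 for HET against WT (95% interval -0.055 to 1.09, limma adjusted p = 0.487) and 0.43 for HOM against WT (-0.15 to 1.001, limma adjusted p rounding to 1). The HET difference was 0.27 without HET 2, and the HOM difference was 0.24 without HOM 1. HOM and HET differed by -0.091 (-0.66 to 0.48, limma adjusted p = 0.957), a direction that turned without HET 2 (0.16) and without HOM 2 (0.019).

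Foxa1 encodes the forkhead pioneer factor of hormone-sensing cells (transcript cluster 17281337). Its WT values, 4.89, 5.89, 5.37, 5.39 and 5.54 in tumors 1 to 5, lay close together. In HET it was 5.20, 7.84, 5.09, 6.18 and 8.99, and in HOM 7.68, 5.57, 5.44, 6.57 and 6.01. HET 5, HET 2 and HOM 1 were the 3 highest tumors, and HOM 4 and HET 4 followed. Foxa1 was above the array median in 1 WT, 3 HET and 3 HOM tumors. Means were 5.42 ± 0.36 (WT), 6.66 ± 1.71 (HET) and 6.25 ± 0.91 (HOM), so the SD of HET was the widest of any member in any genotype. HET was 2.37-fold above WT (log2 difference 1.24, 95% interval -0.18 to 2.67, limma adjusted p = 0.420), and that value was 0.66 without HET 5. Without HET 1 and HET 3, the tumors that stood apart in cell type markers, it was 2.25 (limma adjusted p = 0.188). HOM was 1.79-fold above WT (0.84, -0.59 to 2.26, limma adjusted p rounding to 1), and 0.48 on the log2 scale without HOM 1. HOM against HET gave -0.41 (-1.83 to 1.02, limma adjusted p = 0.889), which was 0.18 without HET 5 and 0.21 with leukocyte and fibroblast marker means as covariates.

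A start region of Foxa1 and of Pgr is shown because these 2 genes varied together over the tumors, as described below. Both are the 250 bases before a RefSeq transcription start in GRCm38.p6, written 5′ to 3′ on the gene's own strand. They lie at chr12:57546112-57546361 (minus strand) for Foxa1 and chr9:8899583-8899832 (plus strand) for Pgr. Both windows are inside the span of the gene (57540628 to 57548029 for Foxa1, 8898900 to 8968611 for Pgr). The region before the outermost start of either gene was not searched. Capitals mark the forkhead motif TGTTTAC, found here on the opposite strand.
Foxa1: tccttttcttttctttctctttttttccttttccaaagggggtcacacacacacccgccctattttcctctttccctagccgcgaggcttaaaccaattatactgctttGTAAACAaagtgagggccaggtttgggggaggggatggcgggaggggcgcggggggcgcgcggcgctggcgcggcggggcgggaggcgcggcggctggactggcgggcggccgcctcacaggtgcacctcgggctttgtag
Pgr: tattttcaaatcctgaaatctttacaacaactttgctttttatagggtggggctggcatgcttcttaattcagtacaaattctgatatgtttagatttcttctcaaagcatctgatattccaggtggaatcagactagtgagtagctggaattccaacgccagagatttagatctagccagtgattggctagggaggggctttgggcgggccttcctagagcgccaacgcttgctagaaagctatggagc

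The forkhead motif lay 141 to 135 bases before this Foxa1 start, and the same letters occurred in 3.17% of the 32851 RefSeq promoters of this length. Other motifs were searched on both strands. The letters AGATAA, bound by zinc finger factors of the Gata3 family, were in 9.99% of promoters, the T-box motif AGGTGTGA in 1.12% and the STAT motif TTCNNNGAA in 7.02%. The estrogen response element (an inverted repeat of GGTCA with 3 bases between) was in 0.064%, and the progesterone response element (the same arrangement of AGAACA) in 0.009%. None of these 6 motifs was in the Pgr window. GC content was 62.0% in the Foxa1 window and 43.6% in the Pgr window. Promoters were found for 6 of the 7 members, Prlr included, and Tbx3 had no entry. A match describes letters only, and its absence says nothing about binding.

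Gata3 encodes the zinc finger factor of luminal cells (transcript cluster 17381533), and T cells also express it. It was 9.08, 9.21, 9.68, 8.32 and 9.79 in WT 1 to 5. In HET it was 7.88, 8.40, 9.82, 7.38 and 9.55, and in HOM 10.19, 9.61, 10.07, 9.76 and 8.90. HET split, with HET 3 just above all WT tumors, HET 2 and HET 5 within the WT range and HET 1 and HET 4 below it. Means were 9.22 ± 0.59 (WT), 8.61 ± 1.05 (HET) and 9.71 ± 0.51 (HOM). HOM was 2.14-fold above HET (log2 difference 1.10, 95% interval 0.15 to 2.05, unadjusted p = 0.0267). It did not pass over all genes (limma adjusted p = 0.587), and 3 HOM tumors overlapped the HET range. HET against WT gave -0.61 (-1.56 to 0.34, limma adjusted p = 0.558), and -0.30 without HET 4. HOM against WT gave 0.49 (-0.46 to 1.44, limma adjusted p rounding to 1). It was 0.26 without WT 4 and 0.83 without WT 5 and HOM 5. A second, dimmer cluster assigned to Gata3 alone ran from 5.89 to 6.95 and had means of 6.60 in WT, 6.36 in HET and 6.70 in HOM, the same order as the brighter one. With the mean of both clusters, HOM against HET was 0.72 and HOM against WT 0.30.

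Tbx3 encodes a T-box repressor (transcript cluster 17441595). It was 7.32, 6.38, 6.24, 6.88 and 6.80 in WT 1 to 5, and 7.76, 8.003, 6.79, 8.73 and 6.36 in HET 1 to 5. In HOM it was 7.19, 6.44, 6.65, 7.00 and 7.43. HET 1, HET 2 and HET 4 lay above every WT and HOM tumor, while HET 3 and HET 5 lay within the WT range. Means were 6.72 ± 0.43 (WT), 7.53 ± 0.95 (HET) and 6.94 ± 0.40 (HOM). HET was 1.75-fold above WT (log2 difference 0.81, 95% interval -0.011 to 1.62, limma adjusted p = 0.377). Tbx3 had the smallest adjusted p of the members in that comparison. The difference was 0.51 without HET 4 and 1.10 without HET 5. HOM was 0.22 above WT (-0.60 to 1.04, limma adjusted p rounding to 1), and 0.098 without HOM 5. HOM against HET gave -0.59 (-1.40 to 0.23, limma adjusted p = 0.697), and -0.29 without HET 4.

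Cited1 encodes a transcriptional coactivator that binds CBP and p300 and marks hormone-sensing cells (transcript cluster 17543664). Its values were 7.12, 7.20, 6.93, 8.13 and 7.10 in WT 1 to 5. They were 6.46, 7.40, 7.31, 7.13 and 7.34 in HET and 7.23, 7.14, 6.99, 7.23 and 7.60 in HOM. WT 4 stood above all others and HET 1 below all others, and the other 13 tumors lay between 6.93 and 7.60. Means were 7.30 ± 0.48 (WT), 7.13 ± 0.39 (HET) and 7.24 ± 0.23 (HOM). The 3 differences were -0.17 for HET against WT (95% interval -0.66 to 0.32), -0.059 for HOM against WT (-0.55 to 0.43) and 0.11 for HOM against HET (-0.38 to 0.61). Their limma adjusted p was 0.765, rounded to 1 and 0.916. Without WT 4 the first became 0.037 and the second 0.15, and without HET 1 the third became -0.054, so each direction turned when a single tumor was left out.

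**Figure D2:**
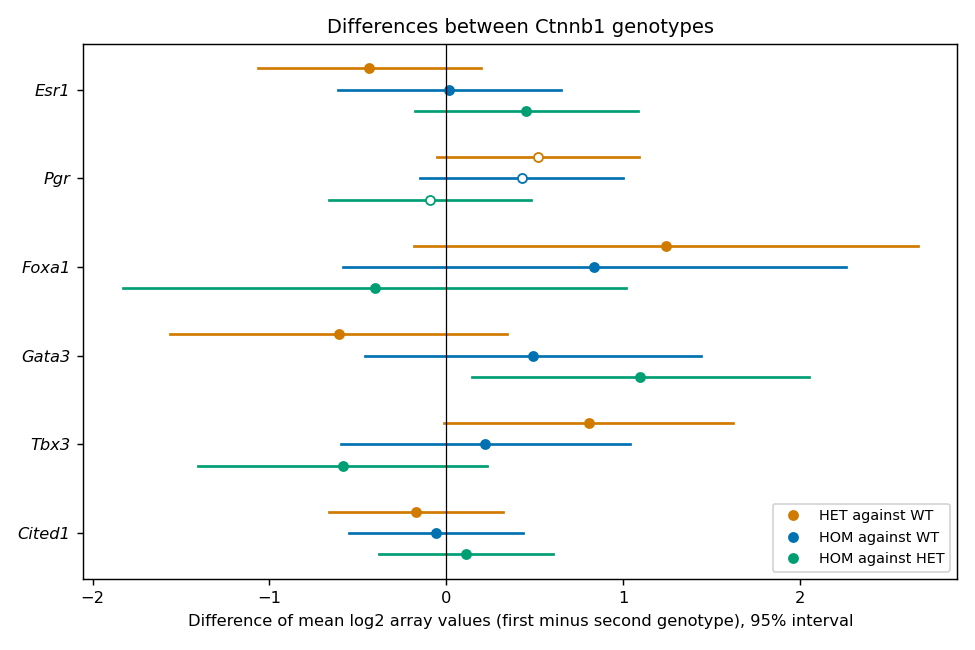
Difference of the mean log2 array values for each gene (horizontal axis, first minus second genotype) with its 95% interval from limma. Filled points come from the fit of 14243 genes and open points (Pgr) from the fit without the brightness filter. All intervals cross 0 except Gata3 in HOM against HET, 0.15 to 2.05, which did not pass adjustment over all genes.

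Likeness between members was described by Pearson's r over the 15 tumors, with no test, since the genes were chosen with results of these tumors known and each tumor contributes to every pair. Of the 15 pairs of the 6 measured genes, 2 had an r beyond 0.7 in size. Pgr and Foxa1 rose and fell together (r = 0.76, Spearman's rho = 0.83). The value was 0.67 without HET 2 and HOM 1, the tumors farthest from the Pgr median, 0.69 on deviations from the genotype means and 0.94 without HET 5. HET 5 had the highest Foxa1, 8.99, with a Pgr of 5.13, while HET 2 and HOM 1 were high in both. Gata3 and Tbx3 ran in opposite directions (r = -0.76, rho = -0.53), with -0.76 on deviations from the genotype means. This opposition was -0.48 without HET 4 and HET 1, which were lowest in Gata3.

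Esr1 and Gata3 had a positive r of 0.52 (rho = 0.64), which was 0.41 without WT 3 and HET 1. Esr1 showed no such likeness to its target gene Pgr (r = 0.00031, rho = 0.0036) or to Foxa1 (r = -0.058, rho = -0.046). Pgr exceeded the array median on only 2 arrays, HET 2 and HOM 1. Its r with Esr1, like its r with Foxa1, therefore rests on mostly dim values and is uncertain. Leaving out 1 tumor moved the r of Esr1 with Pgr between -0.25 (without HOM 1) and 0.31 (without HET 2). For Gata3 with Cited1, r was -0.053 over all 15 tumors and -0.71 without HET 4 and HET 1.

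**Figure D3:**
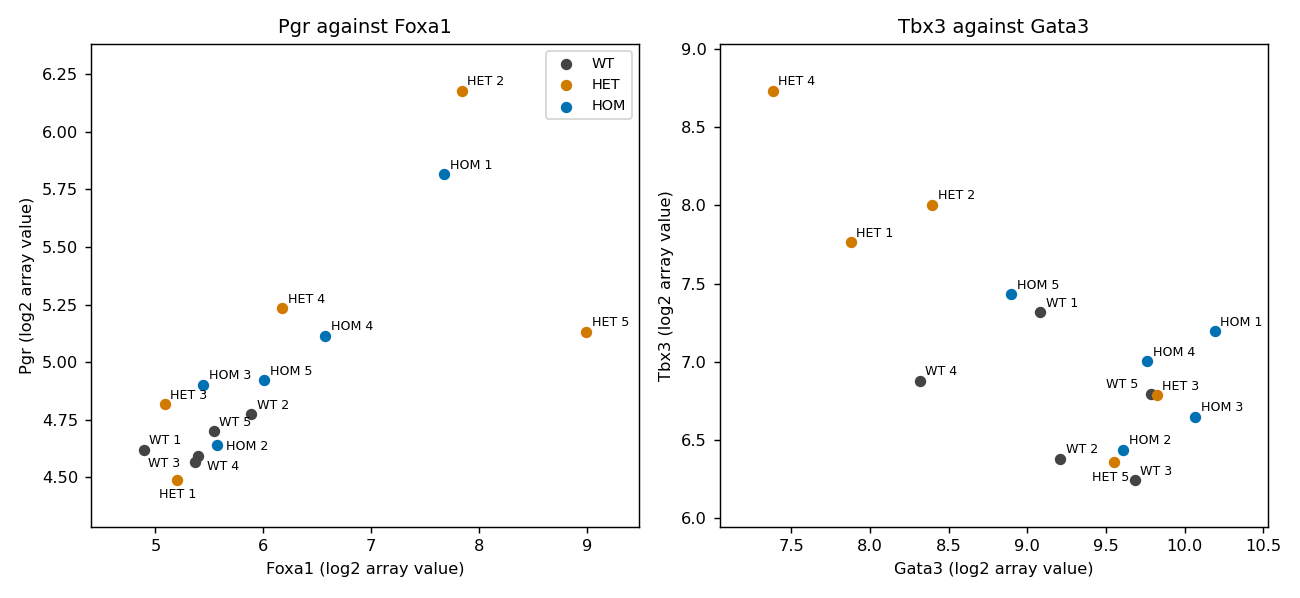
Left, Pgr against Foxa1, and right, Tbx3 against Gata3, in log2 array values, 1 point per tumor coloured by genotype. HET 2 and HOM 1 are high in both Pgr and Foxa1, and HET 5 is high in Foxa1 only. HET 1, HET 2 and HET 4 combine the 3 highest Tbx3 values with Gata3 values of 7.38 to 8.40.

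Markers of other cells moved with some of these genes. Over the 15 tumors Gata3 had an r of 0.72 with the mean of 13 luminal epithelial markers (rho = 0.70, and 0.56 without HET 1 and HET 4). Tbx3 had -0.53 (rho = -0.43, and -0.24 without these 2 tumors). With the mean of 7 endothelial markers Tbx3 had an r of 0.72 (rho = 0.62, and 0.43 without HET 4 and HET 5). Gata3 had -0.67 (rho = -0.56, and -0.49 without these 2 tumors). With 9 fibroblast markers the r was 0.59 for Tbx3 and -0.48 for Gata3, and 0.19 and -0.19 without HET 4 and HET 5. The luminal epithelial mean ranged from 10.03 to 11.02 in WT, 7.95 to 11.06 in HET and 10.30 to 11.08 in HOM. The endothelial mean ranged from 7.79 to 8.91, 7.42 to 10.39 and 7.71 to 9.64, and the fibroblast mean from 7.04 to 9.33, 6.53 to 11.47 and 7.91 to 10.12. With the epithelial mean as a covariate, HET against WT was -0.15 for Gata3 instead of -0.61, 0.56 for Tbx3 instead of 0.81, -0.22 for Esr1 instead of -0.44 and 1.76 for Foxa1 instead of 1.24. With leukocyte and fibroblast means as covariates, that Foxa1 difference was 0.56. HOM against HET, with the epithelial covariate, was 0.57 for Gata3 instead of 1.10, 0.20 for Esr1 instead of 0.45, -0.30 for Tbx3 instead of -0.59 and -1.005 for Foxa1 instead of -0.41. How much of the members' variation belongs to the cell makeup was not tested beyond these values. For T cells, which share Gata3, the mean of 8 markers had an r of -0.30 with Gata3. It was highest in HET 1 (8.28), where Gata3 was 7.88. With the epithelial mean Esr1 had an r of 0.57 (rho = 0.56, and 0.64 without HET 1 and HET 4), Foxa1 0.23 and Pgr 0.17. Cited1 had 0.50 (rho = 0.079), which was -0.17 without HET 1 and HET 4. With the mean of 8 basal and myoepithelial markers, r was 0.53 for Pgr (rho = 0.66) and 0.21 for Foxa1 (rho = 0.50). It was 0.49 for Cited1 (rho = 0.53), 0.33 for Tbx3 (rho = 0.45), 0.21 for Esr1 and -0.067 for Gata3. Without HET 1 and WT 1 these were, in the same order, 0.44, -0.080, 0.14, 0.88, -0.096 and -0.60.

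**Figure D4:**
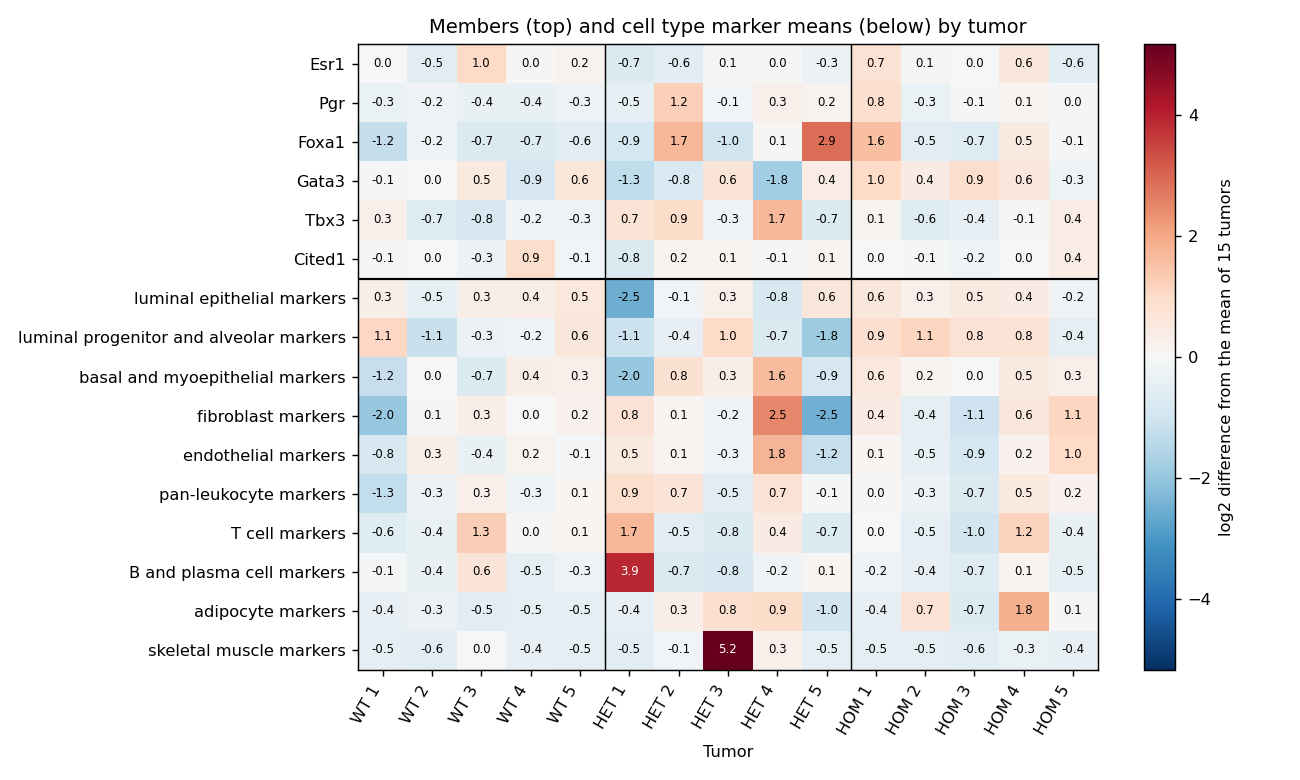
Each row gives the log2 difference of a tumor from the mean of its 15 tumors, for the 6 measured genes (above the line) and for means of cell type marker lists (below), with tumors in columns by genotype. HET 1 is low in epithelial markers (7.95) and high in B and plasma cell markers (9.74), HET 3 is high in skeletal muscle markers (11.28), and HET 4 is high in fibroblast markers (11.47) and in Tbx3 (8.73).

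The wider hormone pathways were described with 6 lists of 74 genes in all, of which 68 had a cluster of their own and 62 were tested. None of the 62 passed in any comparison (limma, 0 each). At an unadjusted p under 0.05 there were 17 in HET against WT (2 higher, 15 lower), or 27.4% beside 13.4% of all tested genes. There were 3 in HOM against WT (4.84% beside 1.70%) and 10 in HOM against HET (8 higher, 2 lower, 16.1% beside 7.93%). These shares are descriptions, and whether the lists differ from other genes was not tested. In HET against WT the luminal epithelial markers had 12 of 13 lower means, with a median difference of -0.67. All 14243 tested genes had 7762 lower means in that comparison, with a median of -0.030. In HOM against WT they had 7520 lower means, with a median of -0.012.

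Targets of the estrogen and progesterone receptors had 8 higher and 5 lower means in HET against WT (13 of 19 tested, median difference 0.071), and 6 higher and 7 lower in HOM against WT (median -0.0023). The 3 with the smallest p in HET against WT were all lower. Stc2, a secreted glycoprotein gene, was 6.75 ± 0.51 against 7.61 ± 0.41 in WT. Xbp1, a secretory-pathway transcription factor, was 12.13 ± 0.46 against 12.84 ± 0.34, and Igfbp5 was 11.19 ± 1.35 against 12.57 ± 0.55. Their limma adjusted p ran from 0.224 to 0.279.

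The list of surface and secreted markers of hormone-sensing cells held 3 tested genes, 2 with higher and 1 with a lower mean in HET against WT (median difference 0.37). Tnfsf11, the RANKL gene and a progesterone target, was 9.23 in HET 1 and 8.37 in HET 4, and between 4.67 and 6.18 in the other 13 tumors (HET against WT 1.56, limma adjusted p = 0.335). T and B cells can also express Tnfsf11. HET 1 was the highest tumor in both marker lists (8.28 and 9.74). HET 4 had means of 7.01 and 5.66, below those of WT 3 (7.86 and 6.48), where Tnfsf11 was 5.43. Il7r (9.28 against 8.29) and Cd4 (8.39 against 7.72) were higher in HET 4 than in WT 3. The other T cell markers were lower. The fibroblast marker mean was 9.75 in HET 1, 11.47 in HET 4 and 10.12 in HOM 5, where Tnfsf11 was 6.05. The part of any of these cells in the Tnfsf11 values was not tested. Wnt4, also a progesterone target, was highest in HET 2 (7.81), as was Pgr, and next in HET 4 (7.44). Its HET mean was 7.03 ± 0.64 against 6.65 ± 0.22 in WT (limma adjusted p = 0.525). Tnfsf11, by contrast, was highest in HET 1, which had the lowest Pgr (4.49), and next in HET 4, where Pgr was 5.23. Both of these Pgr values were below the array median. In HET 2 and HOM 1, the tumors highest in Pgr, Tnfsf11 was 5.86 and 5.71. Prom1, a surface marker of hormone-sensing cells, was 8.59 ± 1.57 in HET and 9.82 ± 0.92 in WT (limma adjusted p = 0.406). Areg, Calca and Ly6a, further markers on that list, had no cluster of their own here.

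For the prolactin axis, whose receptor had no value, 10 of 11 genes were tested. In HET against WT 4 had higher and 6 lower means (median difference -0.19), and in HOM against WT 7 had higher and 3 lower means (median 0.098). Elf5, the Ets factor that drives alveolar differentiation downstream of prolactin, was 7.41 ± 1.66 in HET against 9.29 ± 0.34 in WT (limma adjusted p = 0.238). Socs3, a feedback inhibitor of cytokine receptors, was 8.56 ± 0.50 against 7.72 ± 0.61 (limma adjusted p = 0.266). Stat5a, which carries the prolactin signal, was 9.47 ± 1.13 in HOM and 8.21 ± 0.66 in HET, a difference of 1.26 (limma adjusted p = 0.587). It reached 11.22 in HOM 1, the tumor that was also high in Foxa1 and Pgr and highest in Gata3. The next highest Stat5a value, 10.31, was in WT 1, where Foxa1 was 4.89 and Pgr 4.62.

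Other hormone and nuclear receptors had 12 of 14 lower means in HET against WT (median difference -0.17) and 9 of 14 lower in HOM against WT (median -0.085). Over all 14243 tested genes, 7762 and 7520 means were lower in these comparisons. The thyroid hormone receptor gene Thrb was 6.12 ± 0.59 in HET against 7.32 ± 0.74 in WT. The mineralocorticoid receptor gene Nr3c2 was 6.32 ± 0.44 against 7.29 ± 0.38, and the insulin receptor gene Insr 9.05 ± 0.17 against 9.54 ± 0.21 (limma adjusted p from 0.256 to 0.266). Receptor coregulators had 8 of 10 lower means in HET (median -0.14) and 9 of 10 in HOM (median -0.14). The p160 coactivator genes Ncoa3 (9.54 ± 0.33 against 10.22 ± 0.31) and Ncoa1 (8.98 ± 0.24 against 9.58 ± 0.34) had the smallest p in HET against WT, with limma adjusted p of 0.224 and 0.246. Both comparisons share the WT tumors.

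Other luminal transcription factors had 13 of 16 lower means in HET against WT (median difference -0.51) and 11 of 16 in HOM against WT (median -0.098). Beside these stand the 7762 and 7520 lower means of all 14243 tested genes. Tfap2c, which encodes an AP-2 factor of luminal cells, was 8.34 ± 1.03 in HET against 9.93 ± 0.57 in WT (limma adjusted p = 0.212). Without HET 3 its difference was -1.91 instead of -1.59 and it passed (limma adjusted p = 0.0494), the only gene of the 6 lists to do so under any of the settings tried. That contrast held 4 HET tumors, of which HET 1 (7.95) and HET 4 (9.68) had epithelial means below every WT tumor (10.03 to 11.02). Tfap2c was 7.51 in HET 1 and 7.15 in HET 4, beside 8.40 in HET 2 and 9.01 in HET 5. HET 3, the tumor left out, had 9.64. The part of the cell makeup in this result was not tested.

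The genes most like each member were taken by Pearson's r over the 15 tumors among 14238 tested genes outside the members. For Esr1 they were Exoc3 (r = 0.86), Klhl36 (0.85) and Setbp1 (0.84). For Pgr they were Hgfac (0.90), Wnt11, a Wnt ligand (0.85), and Plekhg1 (0.79), which without HET 2 and HOM 1 were 0.82, 0.73 and 0.58. For Foxa1 they were Csf3, the granulocyte colony-stimulating factor gene (0.91), Igsf9b (0.85) and Rspo1, which encodes an R-spondin (0.84). Those of Foxa1 leaned on the high tumors, since without HET 5 and HET 2 the r was 0.73, 0.50 and 0.57. For Gata3 they were Irx2, an Iroquois homeobox factor (0.90), Zfp664 (0.89) and Prss16 (0.89), and without HET 4 and HET 1 these were 0.74, 0.84 and 0.72. For Tbx3 they were Calhm2 (0.92), Lrp11 (0.92) and Serpinb9b (0.91), and for Cited1 Ybx2 (0.87), Camkv (0.87) and Crocc (0.86). Without WT 4 and HET 1 the r of Ybx2 with Cited1 was 0.50, of Camkv 0.73 and of Crocc 0.72. Without their 2 farthest tumors, the r ran from 0.79 to 0.84 for the genes of Esr1 and from 0.74 to 0.81 for those of Tbx3. These names describe the 15 tumors and carry no test.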

How the data were processed

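Each of 15 tumors was hybridised to 1 Affymetrix whole-transcript array from 100 ng of RNA, per the labels' protocols. The authors deposited log2 intensities for 41345 transcript clusters. The scale was read from the values, 1.06 to 13.91. Expression Console and Transcriptome Analysis Console appear in the submitters' processing notes without versions; the normalization is not given in the sources used here. Clusters with several symbols (1814) named no gene.

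A single model of all 3 genotypes was run in limma 3.58.1 under R 4.3.3 (lmFit and eBayes, two-sided tests, 12 residual degrees of freedom) on 14243 genes above the array median on at least 5 arrays, with Benjamini-Hochberg adjustment across all genes and a threshold of 0.05. On simulated data of 14243 genes, HET against WT recovered 63 of 100 genes changed by 1 log2 unit and 87 of 100 changed by 2, with 5 false calls. The changed genes were drawn at random and the noise was independent between genes. These rates do not say how often a change in a member would be found. The SE of the HET against WT difference was 0.66 for Foxa1, 0.44 for Gata3 and 0.38 for Tbx3. Named genes were the members, Ctnnb1 and Erbb2, the 3 tested genes most like each member, and up to 3 genes with the smallest p from each list. The Stat5a values of HOM 1 and WT 1 were singled out after values were seen. Alternatives covered filters, scaling, probe choice, weights, marker covariates and tumors left out. Members and lists were chosen with earlier results of these data known. The number of arrays limits precision.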

Additional observations from a re-analysis of the deposited data

Results flagged for a closer look

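Cited1 held the 2 tumors that lay far outside their own genotype, by a gap exceeding 0.71 of the range of its 5 tumors. In WT 4 Cited1 was 8.13 (8.135 before rounding), against 6.93 to 7.20 in the other WT tumors. In HET 1 Cited1 was 6.46 (6.459), against 7.13 to 7.40 in the other HET tumors. In all, 24 groups of 5 tumors were examined (6 members, Ctnnb1 and Erbb2 in 3 genotypes), and chance flags about 5% of such groups. HET 1 also had the lowest mean of luminal epithelial markers, 7.95, and WT 4 had 10.84, within the WT range. The part of the cell makeup in either value was not tested.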

How the results depend on the processing

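The count of members past the threshold was 0 in each of the 3 comparisons under all 27 settings tried. The smallest limma adjusted p of a tested member was 0.129 in HET against WT (Tbx3, without HET 5) and 0.236 in HOM against HET (Gata3, without HET 3). In HOM against WT it was 0.9995, shared by every tested member without WT 5. Over all genes the counts ran from 0 to 48, 0 to 4 and 0 to 6 in the same order. Leaving out single tumors kept the direction in 342 of 360 values and reversed 18, and the other settings kept it in 238 of 246 and reversed 8. Many of these values could not change. Leaving out a tumor of the genotype not compared keeps the difference, as do other filters, other eBayes options and fits of only 2 genotypes. The counts of kept directions therefore overstate stability. The reversals were in differences near 0, Foxa1 excepted, and the cause was not tested. With the luminal epithelial mean as covariate, Cited1 gave 0.0002055 (HET against WT) and -0.08638 (HOM against HET), Esr1 -0.01726 (HOM against WT) and Ctnnb1 0.1119 (HOM against HET). With leukocyte and fibroblast means as covariates, Esr1 gave -0.005705 (HOM against WT) and Foxa1 0.2101 (HOM against HET). Median centring gave -0.02679 for Esr1 (HOM against WT), and leaving out HET 1 and HET 3 gave -0.04895 for Cited1 (HOM against HET). With 1 tumor left out, Cited1 ran from -0.2644 to 0.03722 in HET against WT, -0.1513 to 0.1503 in HOM against WT and -0.05355 to 0.1811 in HOM against HET. Esr1 ran from -0.1536 to 0.2357 (HOM against WT), Foxa1 from -0.7988 to 0.1785, Pgr from -0.2752 to 0.1608 and Ctnnb1 from -0.153 to 0.06058 (these 3 in HOM against HET). The r values without the 2 farthest tumors or without 1 tumor were added after seeing the data. No paired analysis was possible because the labels carry no replicate numbers, and tumors were numbered in accession order. Dim signal limits Pgr most, followed by Foxa1.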
